A study of Rattus norvegicus with 8 samples.

Results

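Transcripts of 6 genes best known from heart and skeletal muscle were described in the ovaries of androgen-treated rats: Myh6, Myh7, Myom2, Tnni3, Tnnt2 and Styxl2. They are 6 of the 14217 genes with a probe set of a single gene symbol on the array, and 9 of its 31042 probe sets carry one of their symbols alone. A further 2 probe sets carry both Myh6 and Myh7 and were kept apart. The 6 genes were selected on the contrast between the treated and control ovaries themselves, so their values in it are a description with no test. Each gene was followed at its brightest probe set, judged by the mean of the 6 arrays of single animals, with its other probe sets beside it.

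Female Sprague-Dawley rats carried a silicone capsule for 12 weeks, which released 5α-dihydrotestosterone (DHT), a potent androgen from which no oestrogen is made, or was empty (CTL), and were killed at 15 weeks of age. RNA of the ovarian cortex was hybridized to Affymetrix rat expression arrays, with 3 arrays of single animals per group and 1 array of the pooled RNA of those 3 animals. The DHT capsule serves as a model of the raised androgen level of polycystic ovary syndrome. Tissue around the ovary had been trimmed away, and the groups also differed in corpora lutea, which were largely a feature of the CTL ovaries. The RNA came from a piece of tissue with many cell types, so more cells of one type and more RNA per cell cannot be told apart in any value here.

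In striated muscle, contraction is driven by thick filaments of myosin that pull on thin filaments of actin. Myh6 and Myh7 encode the alpha and beta myosin heavy chains, the motor proteins of the heart and, for beta, of slow skeletal muscle. Myom2 encodes an M-band protein that ties thick filaments together. Tnni3 and Tnnt2 encode the heart forms of troponin I and troponin T, which hold the thin filament off or let it engage as calcium rises. Styxl2, also known as Dusp27, encodes a protein related to dual-specificity phosphatases that is found in striated muscle.

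Windows at the annotated gene start are shown for the pair of cardiac myosin genes, which are neighbours on chromosome 15 and differed in their values below. A window is also shown for Styxl2, whose values moved with those of Myh6. Each window runs from 250 bases before to 50 bases after the gene start in RefSeq (build GRCr8), is written 5′ to 3′ on the strand of the gene, and all 3 genes lie on the minus strand. Of the 6 genes, 5 had a window and Myom2 had none. Capitals mark CATTCC (MCAT element), GATAA (GATA motif), AGAACA (androgen response half-site) and CANNTG (E-box), all searched on both strands. No matches overlapped in these windows.
Myh6, chr15:32411648-32411947: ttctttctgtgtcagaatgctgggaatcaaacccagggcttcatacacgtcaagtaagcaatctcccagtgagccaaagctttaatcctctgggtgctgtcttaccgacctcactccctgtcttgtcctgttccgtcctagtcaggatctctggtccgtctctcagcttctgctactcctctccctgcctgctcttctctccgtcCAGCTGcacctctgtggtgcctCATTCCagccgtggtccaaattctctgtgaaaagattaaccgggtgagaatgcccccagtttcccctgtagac
Myh7, chr15:32438145-32438444: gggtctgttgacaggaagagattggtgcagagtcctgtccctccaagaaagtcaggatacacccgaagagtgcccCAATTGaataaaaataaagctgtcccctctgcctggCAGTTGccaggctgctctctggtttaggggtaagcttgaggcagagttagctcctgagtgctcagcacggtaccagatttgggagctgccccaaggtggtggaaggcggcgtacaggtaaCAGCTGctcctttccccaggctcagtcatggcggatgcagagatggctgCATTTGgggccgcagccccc
Styxl2, chr13:80910655-80910954: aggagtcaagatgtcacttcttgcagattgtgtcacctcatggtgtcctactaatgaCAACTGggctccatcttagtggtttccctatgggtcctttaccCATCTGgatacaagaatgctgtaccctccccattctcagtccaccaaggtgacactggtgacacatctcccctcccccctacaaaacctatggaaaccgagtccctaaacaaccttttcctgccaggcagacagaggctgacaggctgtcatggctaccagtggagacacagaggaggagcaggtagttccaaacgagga

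The Myh6 window held 1 MCAT element and 1 E-box, the Myh7 window 4 E-boxes and the Styxl2 window 2 E-boxes. None of these 3 windows held the GATA motif or the androgen response half-site in these letters. Among the others, the Tnni3 window held 2 GATA motifs. Tnnt2 had 2 windows. The first held 1 MCAT element, 1 GATA motif and 4 E-boxes, and the second 1 androgen response half-site and 1 E-box. Over all 33469 windows of this kind, CATTCC was found in 14.2%, GATAA in 26.5%, AGAACA in 20.7% and CANNTG in 72.1%. These matches are letters in a window and not sites shown to be bound. The Myh7 window holds an ATG just after the gene start that reads in frame to its end, and its last E-box lies after that ATG. The Styxl2 window holds an ATG at the gene start that also reads in frame to its end. In the second Tnnt2 window the half-site overlaps an ATG at the gene start. These windows thus reach the start of coding sequence, and whether they cover the promoters in use was not tested.

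Values are log2 expression after normalization, so a difference of 1 is a 2-fold difference. A background level was set on each array as the 95th percentile over 40 probe sets for receptors of smell and taste, which the ovary should not express, and it lay between 2.62 and 2.66 on 5 of the single-animal arrays and at 3.02 on CTL 3. CTL 3 also stood apart from the other CTL arrays, with correlations of 0.866 and 0.879 over probe sets against 0.983 between CTL 1 and CTL 2, and its median value was 3.25 where the other single-animal arrays lay between 2.97 and 3.03. The excess of the 3′ over the 5′ control of Gapdh, a sign of how complete the RNA was, also ran unevenly over the groups. It was 0.395, 0.617 and 3.49 on the CTL arrays and 3.61, 2.99 and 3.98 on the DHT arrays. Each member is therefore given with and without CTL 3 where it matters.

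Of the 6 genes, 5 were higher on every DHT-treated array than on every CTL array, namely Myh6, Myom2, Tnni3, Tnnt2 and Styxl2. Over all 31042 probe sets, 10.6% had such a pattern, and over the 14217 genes at their brightest single-symbol probe set 14.3% did. With 3 against 3 animals the exact permutation test could not give a p below 0.1 for any single gene. A difference of at least 1 was reached by 4 of the 6, one of them Tnni3, whose CTL values lay mostly below background. The median difference of the 6 was 2.14 where the median over all probe sets was -0.03. Since the genes were chosen for this contrast, nothing is read from these counts.

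**Figure D1:**
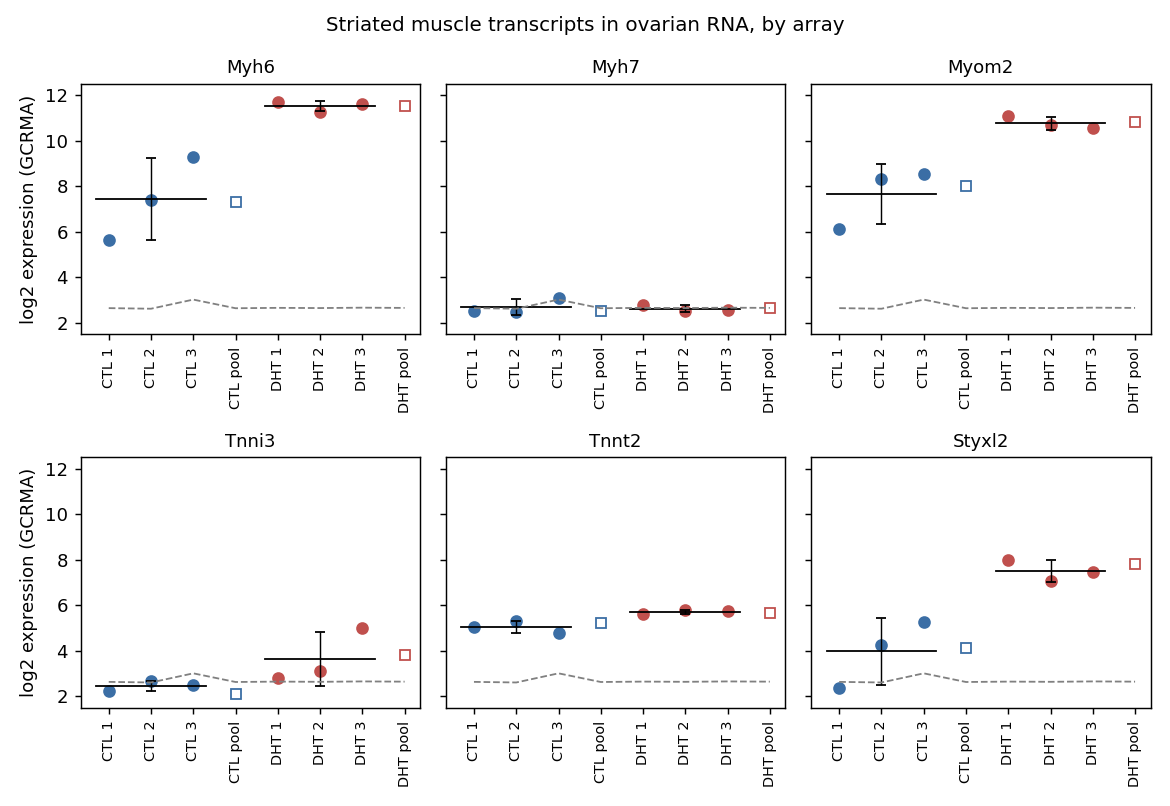
log2 expression (GCRMA) of the 6 genes on each array. Filled points are single animals (CTL blue, DHT red), open squares the pooled arrays, lines and bars the mean ± SD of 3 animals, and the dashed line the background level of each array. Myh6, Myom2 and Styxl2 lie at least 1.78 log2 units higher in the lowest DHT animal than in the highest CTL animal, whereas Myh7 stays at the background level.

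Among the thick filament genes, Myh6 had the widest difference. Its DHT-treated ovaries read 11.68, 11.25 and 11.60, and the CTL ovaries 5.65, 7.38 and 9.26. The treated animals lay close together and all above the CTL animals, which spread over a wide range. The means were 11.51 ± 0.23 and 7.43 ± 1.81 (SD, n = 3 each), a difference of 4.08 or 16.9-fold. The lowest treated value was 1.99 above the highest CTL value. Set against CTL 3 alone, the difference was 2.25, and against the mean of CTL 1 and CTL 2 it was 5.00. The pooled arrays read 11.53 and 7.32, a difference of 4.21.

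The second Myh6 probe set (1387049_at) gave another picture. It read 3.21, 3.01 and 3.03 in the DHT-treated ovaries and 2.83, 2.88 and 3.66 in the CTL ovaries. The groups overlapped and the difference was -0.04. Both probe sets carry the symbol Myh6 alone, so they disagree, and with their mean in place of the brighter one the difference of Myh6 was 2.02.

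Both Myh7 probe sets lay at or below background. The brighter (1386993_at) read 2.79, 2.51 and 2.55 in the DHT-treated and 2.51, 2.45 and 3.07 in the CTL ovaries. The groups overlapped, the difference was -0.06, and 1 of 3 arrays in each group was above its background level. The other (1367928_at) was below background on all arrays, with 2.35, 2.35 and 2.36 against 2.34, 2.35 and 2.78. Beta myosin heavy chain was thus not detected well above background by the probe sets that carry its symbol alone.

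The probe sets annotated to both genes were higher in the treated animals. The first (1398248_s_at), whose suffix marks probes shared by several transcripts, read 8.54, 8.57 and 8.25 in the DHT-treated and 3.75, 4.97 and 4.25 in the CTL ovaries. The groups were 3.29 apart at their closest and the difference was 4.13 or 17.5-fold. Against CTL 3 alone it was 4.21, so this probe set did not share the high CTL 3 value of Myh6. The second (1396165_at) read 4.41, 4.23 and 3.54 against 2.31, 2.28 and 2.59, with a difference of 1.67. Its CTL values were all below background, so the fold is a bound, at least 2.46-fold higher in the treated ovaries. Which of the 2 myosins these probe sets measured cannot be told from the annotation, and the reference names list Myh7 among older names of Myh6.

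**Figure D2:**
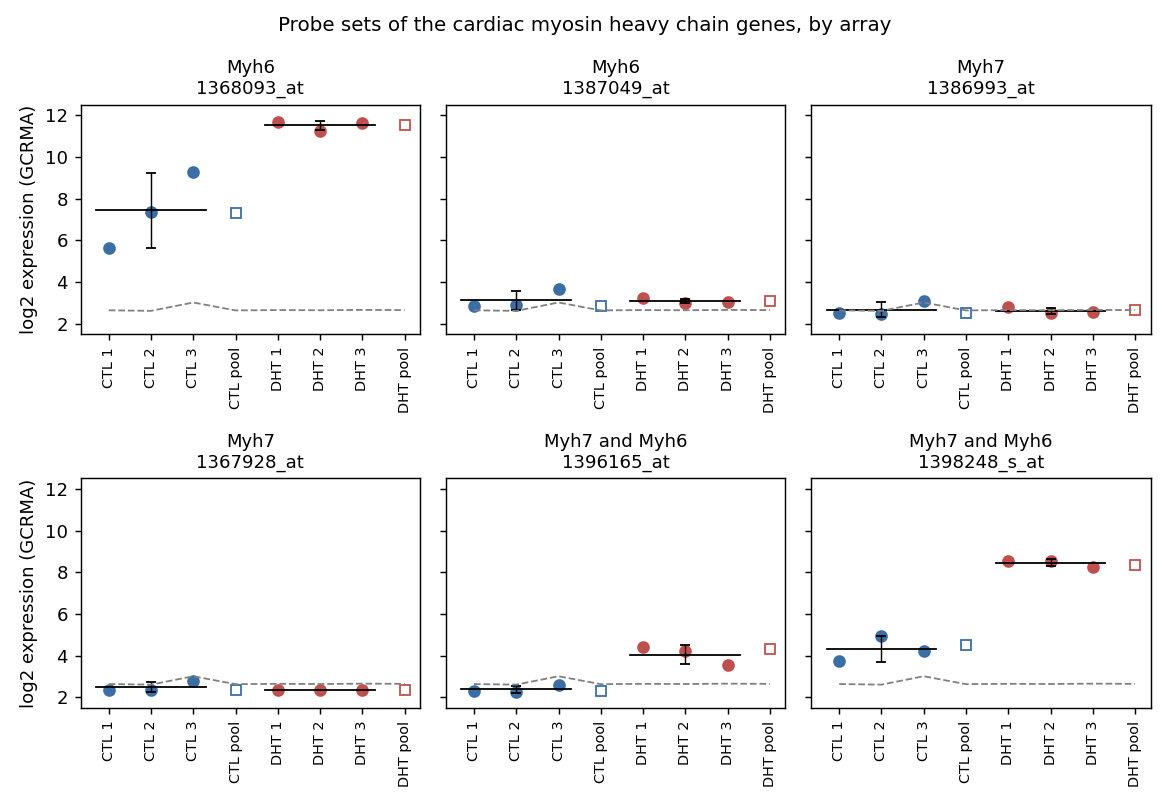
log2 expression (GCRMA) on each array of the 6 probe sets annotated to Myh6, to Myh7 or to both, with CTL animals in blue, DHT animals in red, pooled arrays as open squares and the background level dashed. The brighter Myh6 probe set and both shared probe sets are higher in DHT, by 4.08, 4.13 and 1.67. The other Myh6 probe set is dim but above background in every animal, with a difference of -0.04, and both Myh7 probe sets lie near background.

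Myom2, the M-band gene, ranked the CTL arrays as Myh6 did. It read 11.09, 10.68 and 10.53 in the DHT-treated ovaries and 6.11, 8.31 and 8.54 in the CTL ovaries. The groups did not overlap, with means of 10.77 ± 0.29 and 7.65 ± 1.34 (SD, n = 3 each), a difference of 3.11 or 8.65-fold. Against CTL 3 alone the difference was 2.23 and against CTL 1 and CTL 2 it was 3.55. The pooled arrays read 10.81 and 8.02.

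For the thin filament genes the differences were smaller. Tnnt2, cardiac troponin T, read 5.62, 5.80 and 5.75 in the DHT-treated ovaries and 5.04, 5.31 and 4.81 in the CTL ovaries. The groups were close but did not overlap, with means of 5.72 ± 0.09 and 5.05 ± 0.25 (SD, n = 3 each) and a difference of 0.67 or 1.60-fold. The second Tnnt2 probe set (1390061_at) was below background on every array, and the mean of both gave a difference of 0.33. The pooled arrays read 5.65 and 5.23, a difference of 0.43. Tnnt2 was above background on all CTL arrays too.

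Tnni3, cardiac troponin I, lay near background in all but one animal. It read 2.81, 3.12 and 4.99 in the DHT-treated ovaries and 2.23, 2.66 and 2.52 in the CTL ovaries. DHT 3 stood far above the others, and only 1 of 3 CTL arrays was above background. The means were 3.64 ± 1.18 and 2.47 ± 0.22 (SD, n = 3 each), and the difference was 1.17, or 0.50 without DHT 3. Since 2 of the 3 CTL values were below background, no fold is given. The pooled arrays read 3.81 and 2.13.

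Styxl2, the phosphatase-related gene, varied over the arrays with Myh6 and Myom2. It read 8.01, 7.07 and 7.46 in the DHT-treated ovaries and 2.37, 4.28 and 5.29 in the CTL ovaries. All treated animals were above all CTL animals, and CTL 1 was below background. The means were 7.51 ± 0.47 and 3.98 ± 1.48 (SD, n = 3 each), a difference of 3.53 or 11.6-fold. The difference was 2.22 against CTL 3 alone and 4.19 against CTL 1 and CTL 2. The pooled arrays read 7.80 and 4.14.

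The members nearest to a 2-fold difference were Tnni3 (1.17, with 2 CTL values below background and 0.50 without DHT 3) and Tnnt2 (0.67). Myh6, Myom2 and Styxl2 ranked the CTL arrays alike, with CTL 1 lowest, then CTL 2, then CTL 3. Over the 6 single-animal arrays Pearson's r was 0.992 between Myh6 and Styxl2, 0.975 between Myh6 and Myom2 and 0.989 between Myom2 and Styxl2. It was 0.718 between Myh6 and Tnnt2, 0.624 between Myh6 and Tnni3 and 0.231 between Myh6 and Myh7. These values describe 6 arrays in 2 groups that the genes were chosen to separate, and all genes share the same RNA on each array.

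Along with the group difference ran the 3′ to 5′ difference of Gapdh, which was low on CTL 1 and CTL 2 and high on CTL 3 and all treated arrays. With it as a covariate, the DHT minus CTL difference was 2.25 for Myh6, 2.22 for Myom2, 2.16 for Styxl2, 0.86 for Tnni3, 0.90 for Tnnt2 and -0.44 for Myh7. The comparison with CTL 3, the CTL array whose Gapdh difference was nearest to the treated arrays, gave 2.25, 2.23 and 2.22 for Myh6, Myom2 and Styxl2. CTL 3 weighs heavily in both sets of values, which are therefore not 2 separate checks. The Gapdh difference of the pooled CTL array was 2.62, and that array read 7.32 for Myh6, 8.02 for Myom2 and 4.14 for Styxl2. The part of RNA completeness in the spread of the CTL arrays was not tested.

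**Figure D3:**
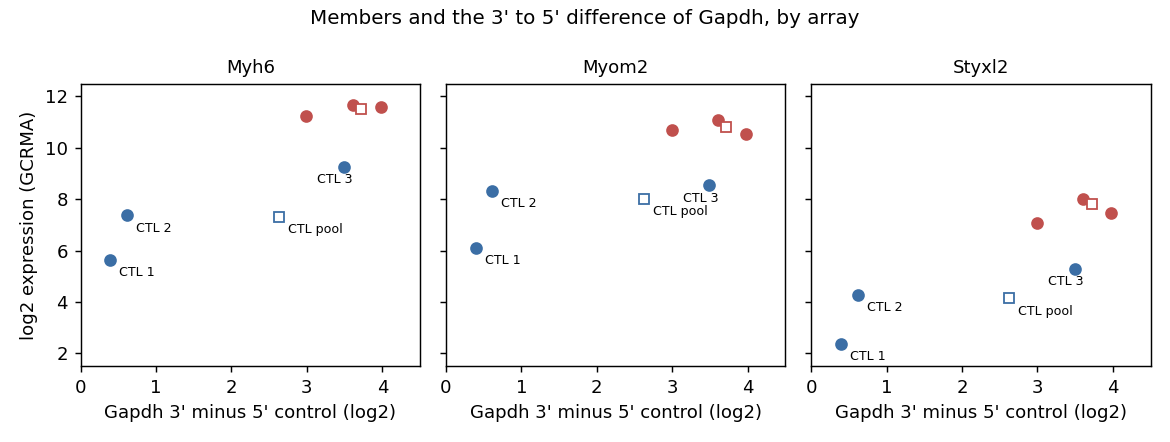
log2 expression (GCRMA) of Myh6, Myom2 and Styxl2 against the excess of the 3′ over the 5′ Gapdh control, 1 point per array. CTL arrays are blue and named, DHT arrays red and unnamed, and pooled arrays open squares; CTL 3, at a Gapdh difference of 3.49, lies below all DHT arrays in each panel.

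The 5 genes most like Myh6 over the 6 arrays, among 2048 genes with a range of at least 2, were Abca8 (a lipid transporter of the ABC family, r = 0.999), Slco1a4 (an organic anion transporter, 0.988), Cirbp (a cold-inducible RNA-binding protein, 0.985), Efs (a signalling adaptor, 0.982) and Bex4 (0.982). Abca8 read 7.53, 7.27 and 7.39 in the DHT-treated ovaries and 5.02, 5.64 and 6.44 in the CTL ovaries. The genes most like the mean of the members were Bex4 (0.996), Slco1a4 (0.990), Abca8 (0.989), Atp1b2 (a sodium pump subunit, 0.988) and RGD1309362 (0.983). In all, 18 of the 2048 genes had an r above 0.95 with Myh6 and 21 with the members' mean, as a description over 6 arrays in 2 groups.

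The wider set of striated muscle genes was then read from 7 lists, which hold no members. Of 120 listed genes 107 were measured, and 53 of them (49.5%) lay near background on all 8 arrays, against 20.5% of the 14217 genes with a single-symbol probe set. A gene was called at a fold change of 2, a p of 0.01 and a false discovery rate of 10% in the limma comparison. Over all probe sets 0.68% were called higher and 0.351% lower in DHT. Of the 107 genes 1 was called higher (Gata4) and 0 lower by limma, with 9 at an unadjusted p under 0.05 (8.41%), where all genes with 1 symbol had 14.9%. The median difference over the 107 was -0.03. Every DHT-treated array was above every CTL array in 11 of them, or 10.3%, against 14.3% of the genes with 1 symbol.

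Of the cardiac regulators and hormones, 7 of 14 measured genes were near background on all 8 arrays: Nppa (atrial natriuretic peptide), the heart transcription factors Nkx2-5, Tbx5, Hand1, Hand2 and Irx4, and Isl1. The other 7, above background on some array, were Gata4, Gata6, Mef2a, Mef2c, Mef2d, Srf and Nppb. Nppb passed the level on DHT 2 alone, at 2.647 against 2.645. Heart genes of the other lists fell on both sides too. Myl2 and Myl7 (ventricular and atrial myosin light chains), Ttn (titin), Actn2, Csrp3 and Mb (myoglobin) were near background on all 8 arrays. Pln, the regulator of the heart calcium pump, read 3.21, 3.50 and 3.19 in DHT and 2.97, 3.06 and 3.54 in CTL, with overlapping groups. Myl3, Mybpc3, Ryr2 and Tnnc1 were above background on some array, and Fabp3 was bright on all. Of the skeletal muscle regulators, Myod1, Myog, Myf6, Mstn and Mymk were near background on all 8 arrays. These genes are examples from the lists, chosen after their values were seen. The heart and striated muscle label describes what the 6 genes encode, and heart genes as a group were only partly above background.

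In the thick filament list 9 of 18 measured genes were near background and none was called by limma, with 0 at an unadjusted p under 0.05. The 3 with the smallest p were Myl1 (-0.13, adjusted p = 0.874), Myh1 (-0.48, adjusted p = 0.896) and Myom1 (-0.08, adjusted p = 0.896). Myh1, a fast skeletal myosin, was bright, at 8.99 to 10.12 in the DHT-treated and 9.56 to 10.71 in the CTL ovaries. Its groups overlapped, its 5 probe sets gave differences from -0.73 to 0.33, and the brightest is marked as open to cross-hybridization. Myom1, the close relative of Myom2, was at background throughout.

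In the thin filament list 5 of 15 genes were near background, none was called by limma and 2 had an unadjusted p under 0.05. The 3 named were Tpm2 (a tropomyosin, 0.69, adjusted p = 0.267), Tpm3 (another, 0.50, adjusted p = 0.291) and Tmod1 (a thin filament capping protein, 0.54, adjusted p = 0.599). Treated values of all 3 lay above every CTL value. Tropomyosins are also expressed in smooth muscle and other cells. The mean log2 level of the list ran from 3.84 to 4.15 on the DHT arrays and from 3.71 to 3.73 on the CTL arrays. The median difference of its genes was -0.0087, so a few genes moved this mean. The largest differences were those of Tpm1 (0.99, with CTL 3 at 5.94) and Tnni1 (0.94, with DHT 3 at 5.83).

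In the Z disc and titin list 11 of 20 genes were near background, none was called by limma and 3 had an unadjusted p under 0.05. Ldb3, a Z-disc protein, read 6.82, 6.88 and 7.19 in DHT and 5.37, 5.88 and 3.59 in CTL, with a difference of 2.02 (adjusted p = 0.284). Without CTL 3 the difference was 1.34 and it passed. Of the other 5 Ldb3 probe sets, 1 gave 1.07 and passed the criteria (adjusted p = 0.0695), 1 gave 1.45 and did not (adjusted p = 0.166), and 3 dim ones lay between -0.03 and -0.0033. Myoz1 (calsarcin, 0.79, adjusted p = 0.270) and Smpx (a small muscle protein, -0.74, adjusted p = 0.196) did not pass.

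The calcium handling and excitation list had 8 of 19 genes near background and none called by limma, with 0 at an unadjusted p under 0.05. The 3 named were Asph (-0.49, adjusted p = 0.537), Jph2 (-0.12, adjusted p = 0.605), a protein that holds the calcium release sites, and Cacna1c (0.22, adjusted p = 0.622), the L-type calcium channel of heart and smooth muscle. In the muscle energy supply list 8 of 13 genes were near background, none was called by limma and 2 had an unadjusted p under 0.05. Fabp3, the fatty acid carrier of heart, read 11.83, 11.79 and 11.46 in DHT and 9.85, 9.91 and 7.96 in CTL. Its difference was 2.45 ± 0.57 (SE, adjusted p = 0.169), so it did not pass although its groups did not overlap. Without CTL 3 the difference was 1.81 and it passed. Eno3, the muscle enolase (0.37, adjusted p = 0.145), and Cox7a1, a muscle subunit of cytochrome oxidase (-1.07, adjusted p = 0.622), did not pass either. For Cox7a1 the difference was -0.42 without CTL 3, which read 4.96, and -2.31 with a call as lower when the Gapdh covariate was used.

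In the list of cardiac regulators and hormones Gata4 rose. It is a transcription factor of the heart that granulosa and theca cells of the ovary also express. It read 8.68, 8.46 and 9.02 in the DHT-treated and 6.58, 6.72 and 5.57 in the CTL ovaries, a difference of 2.43 ± 0.35 (SE, adjusted p = 0.0745 by limma). These values are from the brighter Gata4 probe set. The other lay below background on every array, at 2.04 to 2.26. Its difference was -0.06 (adjusted p = 0.896 by limma) and it was not called. At the brighter probe set the difference stayed between 2.28 and 2.64 when CTL 1, CTL 2 or any DHT array was left out. The call was lost each time, but without any one DHT array 0 of 31042 probe sets were called. That loss is therefore not particular to Gata4. The Gata4 difference was 2.43 but its call lost with the replicate number as a block or a mean-variance trend. With the block, too, no probe set at all was called. After median scaling the difference was 2.48 with the call lost. Mef2a (0.61, adjusted p = 0.280) and Gata6 (-1.29, adjusted p = 0.485) were not called, although Gata6 passed as lower without CTL 3 (-1.94). With the Gapdh covariate the Gata6 difference was -0.03. Its CTL animals read 4.6, 4.4 and 2.6, but the pooled arrays read 2.53 in DHT and 2.54 in CTL, a difference of -0.01. The skeletal muscle regulators had 5 of 8 near background and none called by limma, with 0 at an unadjusted p under 0.05. The named ones were Tead4 (-0.47, adjusted p = 0.426), Tead1 (0.49, adjusted p = 0.437) and Vgll2 (-0.22, adjusted p = 0.896).

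**Figure D4:**
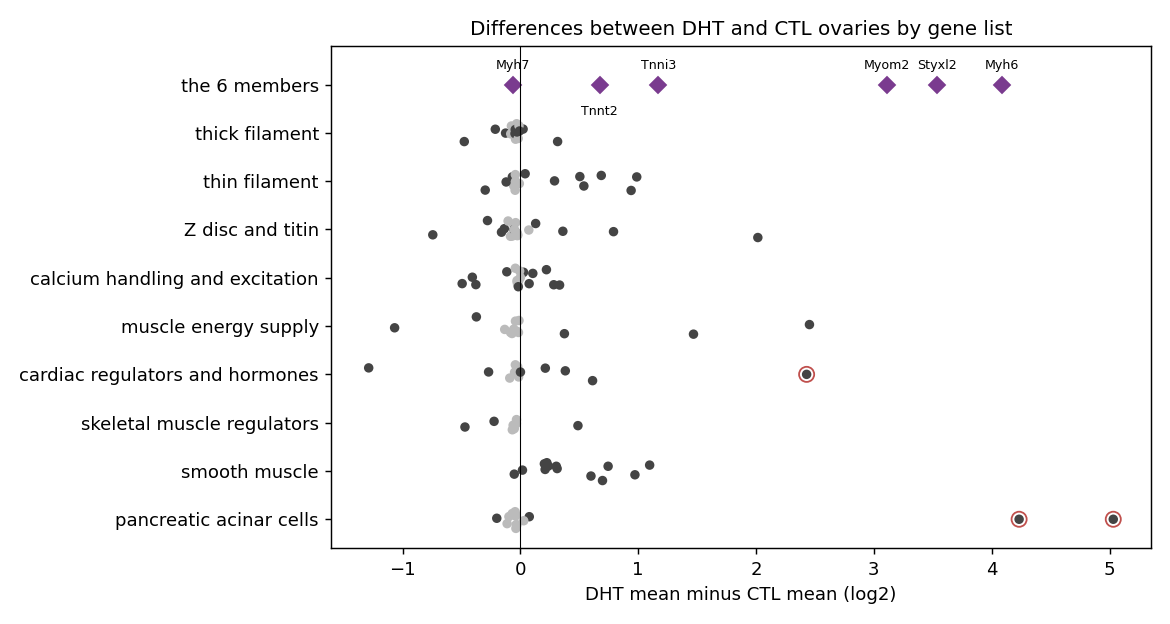
Difference in log2 expression (DHT minus CTL, 3 animals each), 1 point per gene, with the 6 members as diamonds. The lists shown are those of striated muscle, smooth muscle and pancreatic acinar cells. Grey points are genes near background on all 8 arrays, dark points the others, and rings mark genes called by limma. Most striated muscle genes lie near 0 (median -0.03), and Gata4 is the only one of them called.

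DHT 3, the array with the high Tnni3, was highest by more than 0.5 in 8 of the 107 striated muscle genes (7.48%), against 2.76% of all genes with 1 symbol. This was noticed after the values were seen. Tnni1, the slow skeletal troponin I, read 3.01, 2.89 and 5.83 in DHT and 2.87, 2.89 and 3.15 in CTL. Cox8b, a muscle subunit of cytochrome oxidase, read 4.24, 3.86 and 6.89 against 2.85, 3.20 and 4.54. The pooled DHT array read 4.40 for Tnni1 and 5.30 for Cox8b. The mean of the 3 animals was 4.59 and 5.66 when taken before the log2. As a mean of log2 values, used elsewhere here, it was 3.91 and 5.00. The remaining 6 were Ankrd2, Tmod1, Srl, Tnnc1, Ryr2 and Myoz1. DHT 1, DHT 2 and CTL 1 were each highest by that margin in none of the 107, CTL 2 in 3 of them and CTL 3 in 7 (6.54%, against 6.53% of all genes with 1 symbol).

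**Figure D5:**
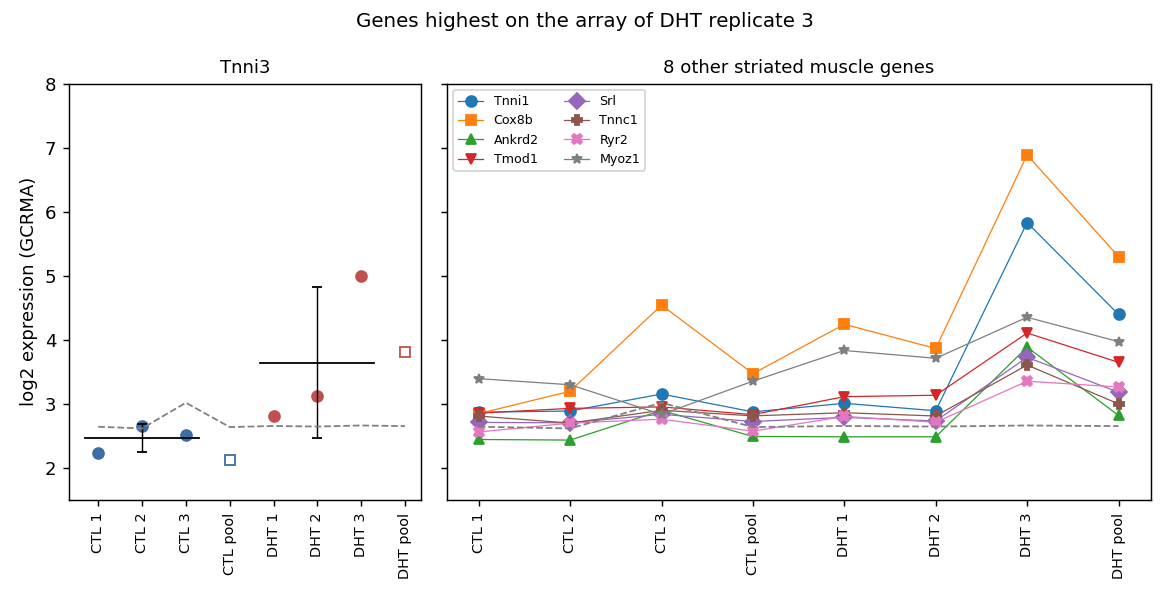
log2 expression (GCRMA) on each array of Tnni3 (left) and of 8 striated muscle genes highest on DHT 3 by more than 0.5 (right). On the left CTL animals are blue, DHT animals red and pooled arrays open, with the mean ± SD of 3 animals. On the right each gene has its own colour, marker and line, and colours do not mark groups. The dashed line is the background level of each array. Tnni1 reaches 5.83 and Cox8b 6.89 on DHT 3, where DHT 1 and DHT 2 read between 2.89 and 4.24.

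Markers of other cells that the tissue could hold were read as well. In the pancreatic acinar list 11 of 15 measured genes were near background, Ptf1a, Prss1, Pnlip and Cel among them, while 2 were called higher, Cpa1 (carboxypeptidase, 5.03, adjusted p = 0.0646) and Ctrb1 (chymotrypsinogen, 4.23, adjusted p = 0.0786). Left-out arrays gave 4.39 to 5.57 for Cpa1 and 3.85 to 4.93 for Ctrb1, and both calls held only without CTL 3. Without any one DHT array no probe set at all was called, so those losses are not particular to these genes. The mean log2 level of the acinar list ran from 3.27 to 3.36 on the DHT and from 2.66 to 2.83 on the CTL arrays. Its median difference was -0.04, so Cpa1 and Ctrb1 moved this mean and most of the list did not. None of 13 smooth muscle genes was called by limma, with 1 at an unadjusted p under 0.05, and their mean log2 level ran from 6.45 to 6.93 on the DHT and from 5.58 to 6.71 on the CTL arrays. Myl9 (a smooth muscle myosin light chain, 1.10, adjusted p = 0.261), Myocd (0.70, adjusted p = 0.609) and Cnn1 (0.24, adjusted p = 0.680) were named by the same rule.

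Among ovarian cells, Inhba (an inhibin subunit of granulosa cells, 1.45, adjusted p = 0.0692), Insl3 (a theca hormone, 3.11, adjusted p = 0.0575) and Zp2 (an oocyte coat protein, 1.55, adjusted p = 0.0870) were called higher. With 1 array left out they were 1.33 to 1.62, 2.82 to 3.37 and 1.30 to 1.73. All 3 calls were lost without CTL 2 or any one DHT array, and that of Zp2 also without CTL 1. Without any one DHT array no probe set passed at all, so that loss was shared by every gene. Hsd17b1 (2.002, adjusted p = 0.213) and Amh (0.97, adjusted p = 0.238) of granulosa cells, and Zp3 (0.22, adjusted p = 0.896) and Bmp15 (-0.04, adjusted p = 0.896) of oocytes, were not called. The steroid synthesis genes Star (-3.75, adjusted p = 0.210) and Cyp11a1 (-3.17, adjusted p = 0.290) were not called either. Treated values of both lay below every CTL value. By limma 5 of 7 granulosa genes (71.4%), 5 of 6 theca genes (83.3%) and 1 of 5 oocyte genes had an unadjusted p under 0.05. The share was 14.9% over all genes with 1 symbol. At least 2-fold differences ran both ways, with 3 granulosa genes higher and 1 lower, and 3 theca genes higher and 2 lower. The luteal list had 0 of 5 called by limma and 1 at an unadjusted p under 0.05, and its mean log2 level ran from 5.23 to 5.76 on the DHT arrays and from 6.75 to 8.37 on the CTL arrays. Rln1 (relaxin, -6.42, adjusted p = 0.227) passed only without CTL 1 (-8.29) among left-out arrays, and Prlr (-1.27, adjusted p = 0.456) and Ptgfr (-1.20, adjusted p = 0.494) were not called. Of 8 adipocyte genes 5 were near background and none was called by limma, with 0 at an unadjusted p under 0.05. Adipoq (-0.12, adjusted p = 0.896) and Plin1, its defining genes, were among those 5, and Cfd (-0.98, adjusted p = 0.781) and Plin4 (0.15, adjusted p = 0.709) were also named by the rule. The part of these cell types in the values of Myh6, Myom2 and Styxl2 was not tested.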

How the data were processed

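Ovarian cortex RNA of 3 DHT-treated and 3 CTL rats, and 1 pool per group, was hybridized to 8 arrays. The authors deposited log2 values, 1 per probe set and array, which they had made by GCRMA (background correction, normalization and summary). The version of the GCRMA and limma tools, and a genome build, were not given in the sources used here. GCRMA pulls dim probe sets together, which compresses their differences. DHT and CTL came from the sample titles. The titles do not name the pools, and replicate 4 of each group was taken to be the pool that the methods describe.

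The 57 control probe sets were left out, and 31042 were tested. Gene names came from the platform annotation and were updated through Entrez gene to GRCr8: 20826 probe sets carry 1 symbol, 436 several and 9780 none. DHT and CTL were compared in R 4.3.3 by the moderated linear model of limma 3.58.1 (lmFit, eBayes). P-values were adjusted over all probe sets by Benjamini-Hochberg, and the criteria of the methods were used. The script was tested on simulated data. The number of arrays limits the precision, and p-values measure the spread between animals.

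The members and lists were chosen with earlier results of these data known. Genes named were the members, in each list those called or the 3 with the smallest p, and the 5 most like Myh6 and the members' mean. The DHT 3 genes were chosen after their values were seen. Alternatives were quantile or median scaling, array weights, a mean-variance trend, dim probe sets left out, a Gapdh covariate, pooled arrays as a replicate, the mean of a gene's probe sets, a replicate block and leaving out each array.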

Additional observations from a re-analysis of the deposited data

Results flagged for a closer look

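The probe sets annotated to both Myh7 and Myh6 belong to no single member and entered no comparison of members, yet they read above the control animals in the DHT-treated ovaries. The difference was 4.13 for 1398248_s_at and 1.67 for 1396165_at. In both, every treated animal was above every CTL animal.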

How the results depend on the processing

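The direction of Myh6, Myom2, Tnni3, Tnnt2 and Styxl2 was kept under every alternative read for the members. Array weights, a mean-variance trend and dim probe sets left out were not among those. The median of the members was 1.53 with the Gapdh covariate, its lowest, and between 1.70 and 2.38 when 1 array was left out. Myh7, near 0, was 0.01 after quantile normalization, 0.15 in the pooled arrays and 0.13 without CTL 3. Over all probe sets, 320 were called, against 3747 with the Gapdh covariate, 1874 with array weights, 966 with the pooled arrays as replicate 4, 173 after quantile normalization, 61 with a mean-variance trend and 0 with a replicate block, where limma gave 3817 at an unadjusted p under 0.05. Leaving out 1 array gave between 0 and 1622, the highest without CTL 3 and 0 without DHT 1, DHT 2 or DHT 3 (2529 to 2623 at an unadjusted p under 0.05). Of the 107 striated muscle genes, 1 was called, against 9 with the Gapdh covariate, 4 with array weights, 3 with the pooled arrays, 2 after quantile normalization, and 0 with median scaling, a mean-variance trend or a replicate block (8, 7 and 10 at an unadjusted p under 0.05). Without 1 array between 0 and 4 were called, 4 without CTL 3. An unadjusted p of 0.05 with the 2-fold criterion, chosen after seeing the data, gave 3. Vgll2 turned to 0.0315 with array weights and lay between -0.36 and 0.0477 when 1 array was left out, and Ptf1a turned to 0.0167 and lay between -0.18 and 0.0183. Both were above 0 without CTL 3. Of the markers of other cells, Cfd turned to 0.37 with the Gapdh covariate, Zp3 to -0.29, Adipoq to 0.0102 and Bmp15 to 0.0144 with array weights, and Bmp15 to 0.0127 with median scaling. Without 1 array Zp3 lay between -0.11 and 0.52, Adipoq between -0.19 and 0.0168 and Bmp15 between -0.076 and 0.0168, each with the turned sign without CTL 3. Cpa1 and Ctrb1 lost their calls after quantile normalization, with a replicate block, and without any single array other than CTL 3. With the block or without a DHT array every other probe set lost its call too. The cause was not tested. Replicate numbers were not taken to pair animals, since the correlations of deviations were -0.07, 0.44 and 0.34. With 3 animals per group and members near background, Tnni3 and Myh7 are limited most by signal.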
